A study of Mus musculus with 3 samples.

Results

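Wells of mouse embryonic fibroblasts kept in a medium named bCFAE were compared with wells kept in a medium named basal, 3 wells of each, to ask how the transcriptomes of cells in these media differed. The wells were chosen by their names in the deposited count table and were 6 of its 274 columns. All 6 stood on 1 plate of DRUG-seq2, an assay in which RNA is reverse transcribed in the lysate of each well with a well barcode and the wells of a plate are then pooled as 1 library. Per the labels of that plate, the cells were wild-type (WT) embryonic fibroblasts and the culture lasted 4 days, and they describe the plate as compounds in a medium called CFAE+8. No strain, embryonic age or transgene is given in the sources used here, nor is the content of either medium, so the letters in the names bCFAE and basal serve as names only. The labels do not say whether wells of 1 name came from separate cultures, so each p-value measures the spread between wells, which may be technical.

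Embryonic fibroblasts are mesenchymal cells that secrete and cross-link collagen matrix and release chemokines, complement proteins and modulators of Wnt and BMP signalling. Wnt ligands stabilise beta-catenin, which acts with TCF/LEF factors on feedback genes such as Axin2 and Nkd1, while the ERK kinase cascade drives ETS and AP-1 factors. NF-kappaB is held in the cytoplasm by inhibitor proteins until signals from cytokine receptors release it, and many acute phase and chemokine genes carry its sites.

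The basal wells had total counts of 315416 to 354766 and the bCFAE wells of 429866 to 726228, so that every bCFAE well was read more deeply than every basal well. The part of this gap in the comparison was not tested beyond scaling. Across genes, log2(CPM + 1) values correlated at 0.948 to 0.965 among the bCFAE wells, at 0.916 to 0.922 among the basal wells and at 0.744 to 0.762 between wells of different media (Pearson r, a description over genes, which are not independent). The fibroblast surface glycoprotein gene Thy1 was read in both groups, with 1380, 1605 and 1228 CPM in basal and 1004, 763 and 1083 CPM in bCFAE wells. It was lower in bCFAE (-0.57 ± 0.17, adjusted p = 0.0077), a call lost without bCFAE 2 (adjusted p = 0.10) or basal 2 (adjusted p = 0.080), and other fibroblast genes are given below. The spread of each gene was estimated over all 30 wells of the plate that are named for a medium, among which MEF 3 and bC8FAE 4 had the lowest totals. Without these 2 wells 1236 genes were called higher and 1326 lower, against 1141 and 1270 with them. In a culture read as bulk RNA, fewer cells of a type and less RNA per cell cannot be told apart.

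Of 6985 genes tested, 2411 (34.5%) were called at an adjusted p under 0.05, with 1141 (16.3%) higher and 1270 (18.2%) lower in bCFAE. The wells of the 2 media did not overlap for 3199 genes (45.8%), and 1312 genes (18.8%) were called with a change of at least 2-fold. Unless another fit is named, adjusted p values come from edgeR's quasi-likelihood test with Benjamini-Hochberg adjustment over the 6985 genes. Values for a named alternative come from that fit and the genes it tested. Log2 fold changes are bCFAE minus basal. The standard error (SE) beside them is the size of the log2 fold change divided by the square root of the test's F statistic. It can understate the error of genes with few counts in a medium. Levels are CPM, counts scaled to a common library size after TMM (trimmed mean of M values) normalisation, listed for wells 1, 2 and 3 of each medium. With scaling by library totals alone the median over all genes moved from 0.003 to 0.137 on the log2 scale and 59.5% of the calls were rises, against 47.3% with TMM. Genes with 0 counts in all wells of a medium are given as a bound that sets that medium at 3 counts over its wells' summed totals, and genes with 1 to 3 counts there as a ratio with a 95% exact interval. Bounds and intervals cover counting error only, and bounds give no order among genes.

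**Figure D1:**
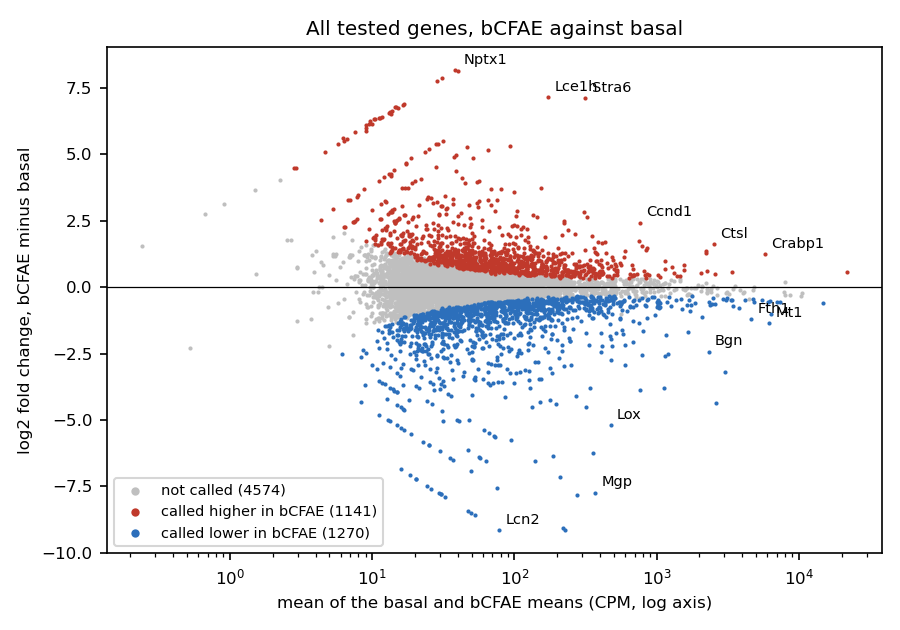
Each point is 1 of 6985 tested genes, with the mean of the basal and bCFAE means on a log axis (CPM) and the fitted log2 fold change (bCFAE minus basal) on the vertical axis; red points are the 1141 genes called higher and blue points the 1270 called lower. Named examples reach from Lcn2 at the bottom to Nptx1 at the top; genes at 0 counts in a medium lie on the outer diagonals, where the fitted value depends on the prior count.

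Genes were ranked by fitted log2 fold change. They had to be called, average 10 CPM or more in the higher medium and show no overlap of wells between media. The order among genes at 0 counts in a medium depends on the fit's prior count. The 15 leading falls were Lcn2, Serpina3g, Saa3, Sfrp4, C1ra, Steap4, Calml4, Serping1, Ptn, Lbp, Hp, Mgp, E030010N08Rik, Sned1 and Agt. Of these, 8 are acute phase or complement genes. Ptn, which encodes the heparin-binding growth factor pleiotrophin, had 85.3, 47.2 and 49.8 CPM in the basal wells and 0 counts in every bCFAE well. It was at least 34.8-fold lower (adjusted p = 6.8e-12). Agt, the precursor of angiotensin, had 33.5, 66.1 and 46.5 CPM in basal and 0 counts in bCFAE wells (at least 27.6-fold lower, adjusted p = 2.9e-09, but 0.083 by DESeq2). The 15 leading rises were Tmem179, Nptx1, Sema7a, Tnfrsf19, Lce1h, Stra6, 1700012B09Rik, Lce3a, Rnf183, Bmp7, Syn1, Ptpre, Cadps, Gm12603 and Mt4. Sema7a, a membrane-anchored semaphorin, had 0 counts in the basal wells and 78.5, 67.9 and 38.9 CPM in the bCFAE wells (at least 22.6-fold higher, adjusted p = 1.9e-11). Lce1h, a cornified envelope gene of the epidermis, went from 3.05, 0 and 3.32 CPM to 389.8, 290.2 and 352 CPM. The groups lay far apart, at a basal to bCFAE ratio of 0.00563, 95% interval 0.00068 to 0.0204 (adjusted p = 8.2e-17). Lce1h and Lce3a belong to a cluster of near-identical copies, so the split of reads among them is uncertain. Mt4, a metallothionein of stratified epithelium, was read in the bCFAE wells only, at 26.2, 16.0 and 38.9 CPM (at least 8.70-fold higher, adjusted p = 7.9e-06).

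The genes were then read by function, in 32 lists of 854 genes, of which 579 were tested. A gene that passed the filter on low counts only through the medium where it was high had to differ, and genes that did not pass were not tested, so list counts describe tested members alone. Whether the counting used strand is not given, so genes whose exons overlap another gene are uncertain. Beside those marked below they include Sned1, Cebpb, Mfap4, Lox, Mmp19, Ccnd1, Spred3, Rarres2, Tgm2, Aars, Sqstm1, S100a4 and Hif1a. S100a4, Hif1a, Aars and Pcolce overlap a protein-coding gene on their own strand, so their reads are uncertain whether or not strand was used. Each count stands against the background of 16.3% called higher and 18.2% called lower. Each lack of overlap between wells stands against the 45.8% of all genes tested that show it.

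**Figure D2:**
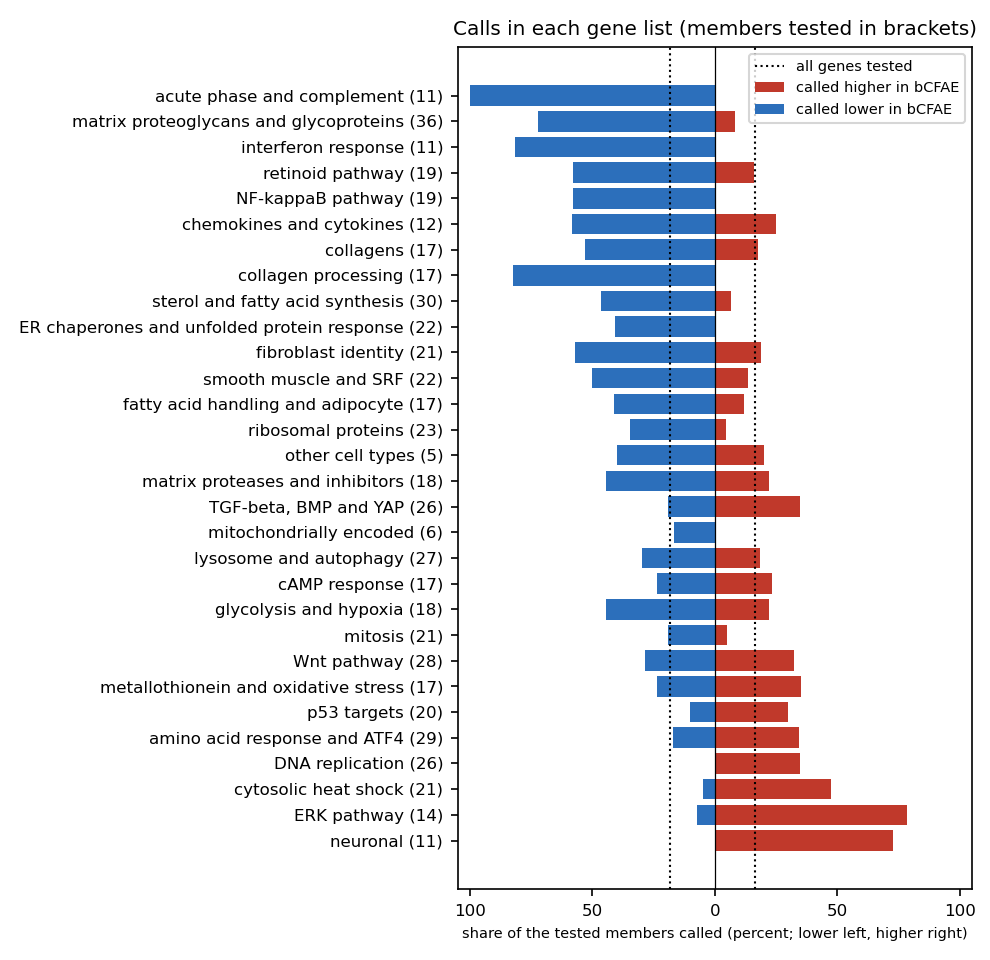
For each gene list with at least 5 tested members (number in brackets), bars show the percent of tested members called higher (red, to the right) or lower (blue, to the left) in bCFAE, ordered by the list's median log2 fold change; dotted lines mark the shares over all genes tested, 16.3% higher and 18.2% lower. The acute phase list reaches 100% lower, and the ERK and neuronal lists 78.6% and 72.7% higher.

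Acute phase and complement genes were present in basal wells and at or near 0 in bCFAE wells. All 11 tested members were called lower, with a median log2 fold change of -7.84 (-6.47 with genes at 0 counts set at their bound), beside 0.003 over all genes tested. The other 14 members did not pass the filter or were not in the table. Members at 0 counts in bCFAE passed the filter only through other wells, so the share called is in part set by the filter. Lcn2, which encodes the iron-scavenging lipocalin 2 (chr2:32384633-32388252, reverse strand, protein-coding, mm10), had 119, 186 and 166 CPM in the basal wells and 0 counts in each bCFAE well. It was at least 88.9-fold lower (adjusted p = 0.00022). Saa3, an acute phase apolipoprotein, had 235, 412 and 674 CPM in basal wells and 0, 0 and 2.29 CPM in bCFAE wells, a bCFAE to basal ratio of 0.00135, 95% interval 3.41e-05 to 0.00757 (adjusted p = 0.00028). The basal wells spread widely for Saa3, yet the lowest of them stood far above every bCFAE well. Serping1, the inhibitor of the first complement protease, had 609, 507 and 528 CPM against 2.91, 2.66 and 0 CPM (-7.84 ± 0.35, adjusted p = 2.6e-26). C1ra, a protease of the first complement complex, had 119, 104 and 76.4 CPM against 0 counts (at least 57.0-fold lower, adjusted p = 5.3e-15). For these genes the lack of overlap between wells was a condition of being named among the leading falls, so it adds no evidence. The haptoglobin gene Hp was at least 33.6-fold lower (adjusted p = 3.1e-07), a call that DESeq2 did not make (adjusted p = 0.085). The metalloreductase gene Steap4 had 60.9, 104 and 116 CPM against 0 counts, and the protease inhibitor genes Serpina3n and Serpina3g had 119, 116 and 143 CPM against 0, 1.33 and 2.29 CPM and 375, 494 and 501 CPM against 0, 1.33 and 0 CPM. Serpina3 genes and Saa3 have close paralogs, and reads shared among copies could be split.

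The promoters of 3 of these genes are shown because they hold the NF-kappaB motif, GGG and TTTCC with any 2 bases between them (either strand), in the 250 bases before the start (RefSeq starts, GRCm38.p6), with the motif in capitals. Of the 8 tested acute phase members with a promoter in the table, these 3 hold it, and so do 1.41% of 32851 promoters of the same length. Members are counted by gene, over any of their promoters, while the 32851 promoters of 27025 genes are counted singly. The 2 shares are thus not strictly alike, here and for the motifs below. Serpina3n and Serpina3g are related genes, so their matches may not be independent. Of 4 tested NF-kappaB pathway targets with a promoter, 0 hold it. The genes and the motif were chosen with expression values known, and a match is a description of letters, not of binding. Steap4 is shown for chr5:7960222-7960471 (match 226 bases before the start, reverse strand), Serpina3n for chr12:104406458-104406707 (171 before, forward strand) and Serpina3g for chr12:104235897-104236146 (85 before, forward strand), each on the forward strand, which is the gene's own.
Steap4: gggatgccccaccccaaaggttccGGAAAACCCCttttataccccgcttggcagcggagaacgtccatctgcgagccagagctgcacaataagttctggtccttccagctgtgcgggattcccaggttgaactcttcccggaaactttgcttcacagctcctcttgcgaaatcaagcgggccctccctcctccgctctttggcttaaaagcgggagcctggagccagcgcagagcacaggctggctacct
Serpina3n: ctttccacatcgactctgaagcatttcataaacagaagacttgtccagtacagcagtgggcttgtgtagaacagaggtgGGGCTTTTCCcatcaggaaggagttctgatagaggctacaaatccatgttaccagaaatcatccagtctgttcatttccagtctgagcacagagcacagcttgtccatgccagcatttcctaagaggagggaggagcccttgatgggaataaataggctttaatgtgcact
Serpina3g: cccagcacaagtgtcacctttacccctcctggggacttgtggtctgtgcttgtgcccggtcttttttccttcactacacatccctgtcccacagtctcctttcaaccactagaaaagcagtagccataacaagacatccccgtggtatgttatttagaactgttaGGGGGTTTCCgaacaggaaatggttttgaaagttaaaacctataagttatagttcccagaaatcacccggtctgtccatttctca

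Most tested chemokine genes of the list fell, while its members Ccl8, Il11 and Tnfsf9 rose. Of 12 tested members 7 were called lower and 3 higher (median -1.06). The rises were 1 in the fit of the 6 bCFAE and basal wells alone, which tested 5161 genes. Cxcl12, the ligand of the receptor CXCR4 (chr6:117168535-117181367, forward strand, protein-coding, mm10), had 707, 614 and 797 CPM in the basal wells and 7.27, 9.32 and 11.4 CPM in the bCFAE wells. Its lowest basal well exceeded its highest bCFAE well manyfold, at -6.24 ± 0.23 (adjusted p = 6.9e-30). The 4 MEF wells, in a medium named only MEF, had 383, 355, 439.9 and 296 CPM, between the 2 groups. Cxcl5, a neutrophil chemokine, had 277, 500.5 and 465 CPM against 2.91, 1.33 and 4.57 CPM. Ccl9 had 116, 119.6 and 156 CPM against 5.82, 0 and 2.29 CPM (-5.47 ± 0.43, adjusted p = 3.1e-16, and -6.85 without bCFAE 1 and -4.78 without bCFAE 2). The macrophage growth factor gene Csf1 fell from 122, 119.6 and 103 CPM to 32.0, 54.6 and 68.6 CPM (-1.20 ± 0.21, adjusted p = 7.9e-06). Il11, a cytokine of the gp130 receptor family, moved the other way, from 12.2, 12.6 and 6.64 CPM to 116, 102 and 89.1 CPM (3.26 ± 0.36, adjusted p = 3.6e-11). Tnfsf9, the 4-1BB ligand, and the chemokine gene Ccl8 had 0 counts in basal wells and 23.3, 25.3 and 13.7 CPM and 21.8, 25.3 and 16.0 CPM in bCFAE wells, each at least 7.59-fold higher. Ccl8 also had 28 of the 25308 counts of a well named nocell, against 15, 19 and 7 counts in the bCFAE wells, so its rise is no firmer than that background allows. The chemokine gene Ccl12, which is not on the list and is named after its values were seen, was also called higher, with means of 4.37 CPM in basal and 45.4 CPM in bCFAE wells (3.39 ± 0.55, adjusted p = 1.1e-06).

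Within the NF-kappaB pathway members among the receptors, inhibitors and targets fell in part and none of 3 tested subunits passed the test. Of 19 tested members 11 were called lower and 0 higher (median -1.06). The TNF receptor gene Tnfrsf1a had 253, 198 and 272 CPM against 96.0, 91.9 and 68.6 CPM (-1.46 ± 0.17), and the adaptor gene Myd88, which overlaps Acaa1a on the other strand, had 119, 59.8 and 69.7 CPM against 14.5, 21.3 and 16.0 CPM (-2.23 ± 0.32). Their adjusted p values were 5.5e-10 and 8.7e-08. The subunit gene Rela had 143, 176 and 156 CPM in basal and 157, 136 and 160 CPM in bCFAE wells, which overlapped (-0.08 ± 0.17, adjusted p = 0.74). The genes listed as inhibitors, which NF-kappaB itself induces, include Nfkbiz and Bcl3, whose falls are not read here as a loss of inhibition. Nfkbiz had 39.6, 47.2 and 66.4 CPM against 5.82, 3.99 and 9.14 CPM (-3.05 ± 0.49, adjusted p = 8.1e-07). Bcl3 had 125, 138 and 99.6 CPM against 24.7, 7.99 and 16.0 CPM (-2.90 ± 0.27, adjusted p = 1.8e-13). Nfkbia fell by 1.06 on the log2 scale, a call lost without basal 3 (-0.90, adjusted p = 0.077). Of the targets, the adhesion genes Vcam1 and Icam1 changed by -3.68 ± 0.60 and -1.90 ± 0.33 and the transcription factor gene Cebpb by -1.82 ± 0.20.

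**Figure D3:**
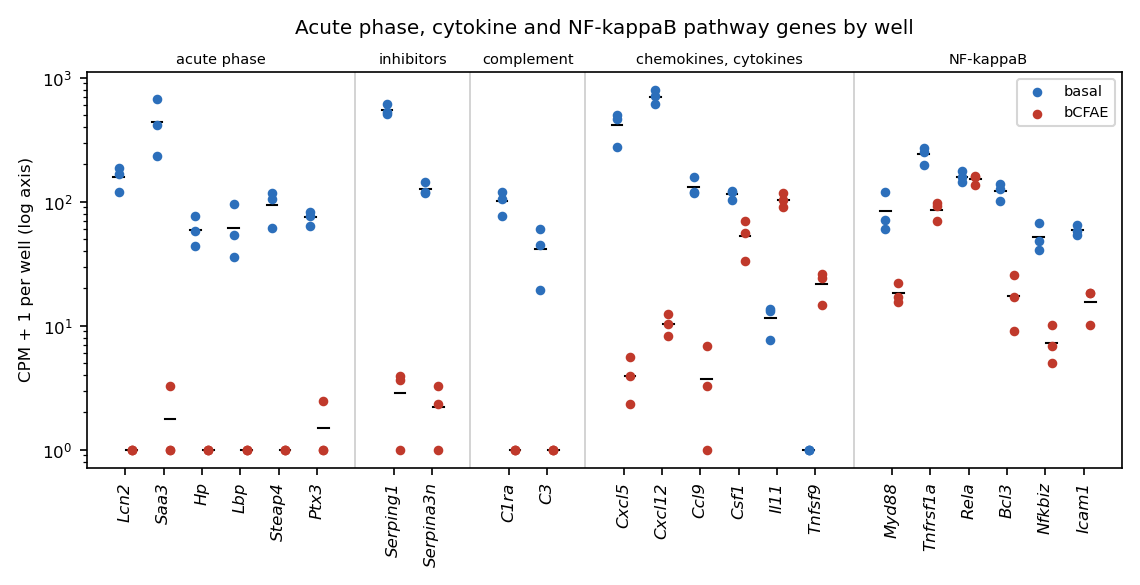
CPM + 1 of each well on a log axis for acute phase, complement, chemokine, cytokine and NF-kappaB pathway genes; blue points are the 3 basal wells, red points the 3 bCFAE wells and black bars the means. Acute phase and complement genes sit at or near 1 (0 counts) in bCFAE, Rela overlaps, and Il11 and Tnfsf9 are higher in bCFAE.

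Interferon-induced genes fell too. Of 11 tested members 9 were called lower and 0 higher (median -1.55). Ifitm3, a membrane protein that blocks virus entry, had 2172, 1920 and 2042 CPM against 313, 397 and 368 CPM (-2.51 ± 0.14, adjusted p = 6.9e-23). Ifitm1 had 649, 447 and 438 CPM against 20.4, 30.6 and 43.4 CPM (-4.08 ± 0.36, adjusted p = 1.5e-14). Ifitm genes are close paralogs, and reads they share are uncertain. Tap1, a peptide transporter of antigen presentation that overlaps Psmb9 in the annotation, changed by -1.55 ± 0.43 (adjusted p = 0.0033).

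Markers of macrophages, which also express many of these genes, moved with them. The summed level of the 7 macrophage markers in the table was 157 to 339 CPM in the basal wells and 52.6 to 55.9 CPM in the bCFAE wells. Lyz2 and Tyrobp were called lower (-2.75 ± 0.34, and -2.07 without basal 3, and -2.20 ± 0.45), Cd68 was not called, and the defining leukocyte marker Ptprc was at 0 counts in both media. Whether such cells had a part in the falls was not tested.

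Matrix genes fell broadly, with a few collagens and glycoproteins rising. Of 17 tested collagen genes 9 were called lower and 3 higher (median -0.98), and of 36 proteoglycans and glycoproteins 26 were lower and 3 higher (median -1.62), of which the rises were 1 without basal 3. Col1a1 and Col1a2, the chains of type I collagen, had 460, 456 and 551 CPM and 822, 951 and 916 CPM in basal wells. In bCFAE wells they had 154, 153 and 139 CPM and 289, 258 and 240 CPM, with changes of -1.71 ± 0.16 and -1.77 ± 0.15. Col5a2, a regulator of fibril width, fell from 225, 280.2 and 272 CPM to 26.2, 50.6 and 29.7 CPM (-2.82 ± 0.20, adjusted p = 5.1e-18). Against these, Col18a1, a basement membrane collagen and the source of endostatin, rose from 88.3, 94.4 and 86.3 CPM to 499, 566 and 622 CPM (2.64 ± 0.17, adjusted p = 3.8e-19). Col7a1, which forms anchoring fibrils, rose from 0, 12.6 and 9.96 CPM to 37.8, 59.9 and 57.1 CPM (2.75 ± 0.53, and 3.36 without basal 2). No well of either medium overlapped for Col18a1 or Col7a1, as for 45.8% of all genes tested. Col6a1 had 356, 321 and 286 CPM against 279, 219.7 and 254 CPM and was not called (-0.36 ± 0.16, adjusted p = 0.065), though it was in the fit of the 6 wells alone (adjusted p = 0.027).

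Among the noncollagenous matrix genes, Mgp, an inhibitor of calcification (chr6:136872435-136875823, reverse strand, protein-coding, mm10), had 822, 475 and 913 CPM in basal wells and 2.91, 3.99 and 2.29 CPM in bCFAE wells (-7.73 ± 0.39, adjusted p = 1.8e-24). Ogn, a small leucine-rich proteoglycan, had 305, 211 and 312 CPM against 0, 2.66 and 6.86 CPM (-6.55 ± 0.33, adjusted p = 2e-24, and -5.93 without bCFAE 1 and -7.37 without bCFAE 3). Bgn, of the same family, fell from 4277, 3522 and 3964 CPM to 775, 720.2 and 702 CPM (-2.42 ± 0.14, adjusted p = 5.6e-21). All 5 tested members of that family were called lower. Dcn, also of that family, had 317, 459.5, 1137 and 440.3 CPM in the MEF wells, of which MEF 3 was the highest, beside 249.8, 368 and 252 CPM in basal and 11.6, 14.6 and 18.3 CPM in bCFAE wells. The microfibril genes Mfap4 and Efemp1 changed by -3.61 ± 0.33 and -3.46 ± 0.37 (-4.08 without bCFAE 2). Sparc, a collagen-binding glycoprotein, had 2090, 1580 and 1773 CPM against 582, 513 and 469 CPM (-1.80 ± 0.15). The tenascin gene Tnc rose, from 344, 441 and 239 CPM to 602, 576 and 530.3 CPM (0.74 ± 0.17, adjusted p = 0.00033). Fn1, the fibronectin gene, was called lower by a narrow margin (-0.35 ± 0.14, adjusted p = 0.046), and 8 of 13 alternatives, among them every fit without 1 of the 6 wells, did not call it.

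Most enzymes that modify collagen fell: of 17 tested members 14 were called lower and 0 higher (median -0.81). Lox, which oxidises lysines for cross-links, had 950.4, 781 and 1046 CPM in basal and 26.2, 17.3 and 36.6 CPM in bCFAE wells (-5.18 ± 0.24, adjusted p = 1.5e-25). Its level in the MEF wells was 622, 612, 1360 and 558 CPM, so that every bCFAE well stood below every MEF and basal well. Loxl1, its paralog, had 993, 969.5 and 1009 CPM against 221, 209 and 224 CPM (-2.19 ± 0.13, adjusted p = 5.8e-21). Pcolce, an enhancer of procollagen cleavage whose exons overlap Fbxo24, changed by -1.69 ± 0.13, the prolyl hydroxylase gene P4ha2 by -2.14 ± 0.23 and the collagen chaperone gene Serpinh1 by -0.81 ± 0.13. All 3 had wells that did not overlap, as did 45.8% of all genes tested.

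Matrix proteases moved in both directions. Of 18 tested proteases and inhibitors 8 were called lower and 4 higher (median -0.13). Mmp10, which encodes stromelysin 2, had 6.09, 0 and 3.32 CPM in basal wells and 109, 117 and 158 CPM in bCFAE wells. The groups lay far apart, at a basal to bCFAE ratio of 0.0233, 95% interval 0.00477 to 0.0689 (adjusted p = 4e-14). Mmp2, a gelatinase, fell from 664, 573 and 631 CPM to 166, 190.4 and 219 CPM (-1.71 ± 0.15, adjusted p = 2.3e-14), and Adamts5, an aggrecanase, from 39.6, 34.6 and 36.5 CPM to 0, 1.33 and 0 CPM (a bCFAE to basal ratio of 0.0159, 95% interval 0.000391 to 0.0944). Mmp19 fell by 3.07 on the log2 scale. Plat, the tissue plasminogen activator, rose from 60.9, 50.4 and 59.8 CPM to 132, 134 and 121 CPM (1.19 ± 0.20, adjusted p = 2.3e-06). The inhibitor gene Timp1 was high and overlapping in both media, with 2233, 1876 and 1982 CPM against 2134, 2054 and 2190 CPM (0.06 ± 0.15, adjusted p = 0.79). The promoter of Mmp10 (chr9:7502092-7502341, forward strand, GRCm38.p6) is shown because it holds the AP-1 motif TGACTCA on the reverse strand, 63 bases before the start, in capitals. The motif (either strand) is held by 3 of the 7 tested proteases with a promoter, namely Mmp10, Mmp3 and Mmp13. It is held by 4.46% of all 32851 promoters, counted singly and not by gene. Mmp3 was not called (-0.32 ± 0.23) and Mmp13 was called lower (-1.24 ± 0.38), a call lost without basal 1 (-0.78, adjusted p = 0.20).
Mmp10: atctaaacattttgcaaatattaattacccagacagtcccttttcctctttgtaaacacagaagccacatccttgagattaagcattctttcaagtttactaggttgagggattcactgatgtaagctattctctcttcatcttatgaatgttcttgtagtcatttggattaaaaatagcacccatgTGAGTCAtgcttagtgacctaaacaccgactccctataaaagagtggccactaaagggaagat

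**Figure D4:**
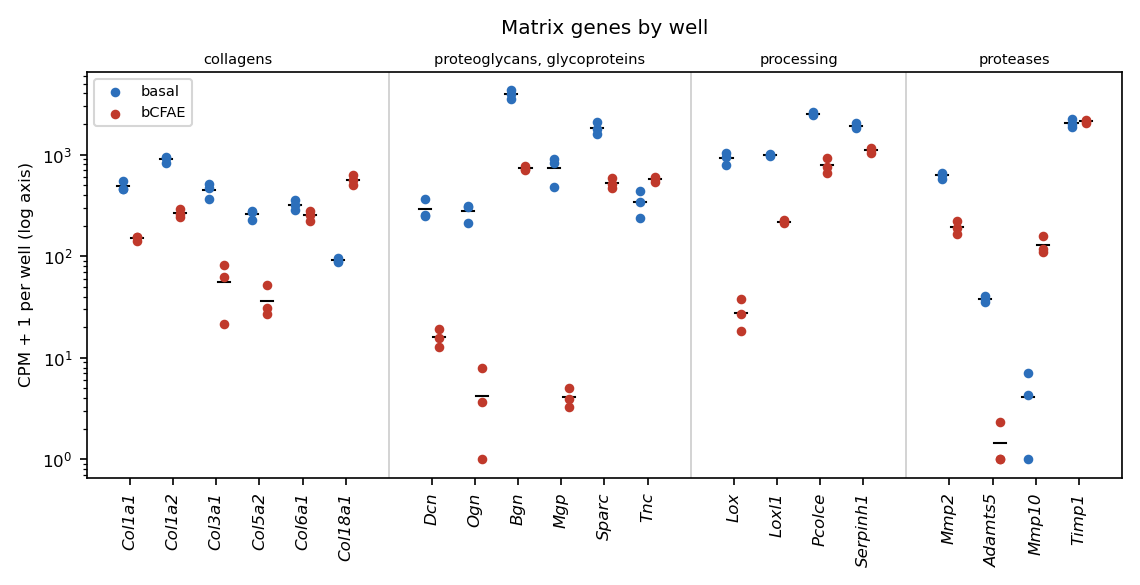
CPM + 1 of each well on a log axis for collagens, other matrix genes, collagen-processing enzymes and proteases; blue points are the 3 basal wells, red points the 3 bCFAE wells and black bars the means. Ogn, Mgp and Lox are far lower in bCFAE, Timp1 overlaps, and Col18a1 and Mmp10 are higher.

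Fibroblast surface and transcription factor genes changed unevenly: of 21 tested members 12 were called lower and 4 higher (median -0.57). Osr1, a transcription factor of connective tissue progenitors, had 119, 126 and 96.3 CPM against 1.45, 0 and 2.29 CPM, a bCFAE to basal ratio of 0.0103, 95% interval 0.00123 to 0.038 (adjusted p = 8.4e-15). Ly6a, which encodes the surface protein Sca-1, had 2300, 2191 and 1799 CPM against 145, 161 and 151 CPM (-3.78 ± 0.17, adjusted p = 2.7e-26). S100a4, a calcium-binding protein often used as a fibroblast marker, had 1484, 1332 and 1252 CPM against 205, 249 and 240 CPM (-2.55 ± 0.20, adjusted p = 3.8e-16). The wells of these 3 genes stood far apart. The PDGF receptor genes Pdgfra and Pdgfrb changed by -2.02 ± 0.35 and -1.98 ± 0.31. In contrast the intermediate filament gene Vim rose from 1264, 1338 and 1272 CPM to 3310, 3220 and 3024 CPM (1.30 ± 0.14, adjusted p = 1.9e-11), and the mesenchymal transcription factor gene Twist2 from 393, 516 and 299 CPM to 1214, 1145 and 1189 CPM (1.55 ± 0.17, adjusted p = 7.6e-11). Twist1 rose by 1.53 ± 0.32.

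Contractile genes fell in part, with 11 of 22 tested members called lower and 3 higher (median -0.32). Acta2, smooth muscle actin, had 2668, 2805 and 3141 CPM in basal and 1425, 1270 and 1237 CPM in bCFAE wells (-1.13 ± 0.15, adjusted p = 9.7e-09). Actg2, the enteric smooth muscle actin, fell from 433, 365 and 398 CPM to 42.2, 66.6 and 38.9 CPM (-2.97 ± 0.21, adjusted p = 1.1e-17). Reads shared among actin genes are uncertain. Mylk, the myosin light chain kinase, had 57.9, 63.0 and 63.1 CPM against 4.36, 0 and 0 CPM, a bCFAE to basal ratio of 0.0287, 95% interval 0.00575 to 0.0882, and 0 counts in bCFAE without bCFAE 1. Fhl2, a LIM domain cofactor, rose from 30.5, 47.2 and 46.5 CPM to 112, 141 and 137 CPM (1.65 ± 0.23, adjusted p = 3.2e-08).

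In the Wnt pathway the feedback and target genes rose while 4 of 6 tested receptors and ligands fell. Of 28 tested members 9 were called higher and 8 lower (median 0.27), and the rises were 5 in the fit of the 6 wells alone, which tested fewer genes. Of 8 feedback and target genes 7 were higher and 0 lower. Axin2, the scaffold that returns beta-catenin to degradation, had 0 counts in basal wells and 8.73, 18.6 and 27.4 CPM in bCFAE wells (at least 5.92-fold higher, adjusted p = 8.3e-05). The MEF wells had 0, 2.98, 0 and 0 CPM of Axin2. Tnfrsf19, a TNF receptor family member (TROY, chr14:60963875-61046490, reverse strand, protein-coding, mm10), had 0 counts in basal wells and 53.8, 81.2 and 36.6 CPM in bCFAE wells (at least 21.1-fold higher, adjusted p = 8.5e-12). The factor gene Lef1 was read in bCFAE wells only, at 11.6, 9.32 and 13.7 CPM, and its relative Tcf7 went from 3.05, 3.15 and 0 CPM to 26.2, 26.6 and 48.0 CPM. Nkd1, an inhibitor of dishevelled, rose from 12.2, 3.15 and 19.9 CPM to 75.6, 108 and 112 CPM (3.04 ± 0.37, adjusted p = 9.1e-10). No basal well reached a bCFAE well for these 5 genes, and wells did not overlap for 45.8% of all genes tested. Axin2, Tnfrsf19 and Lef1 had 0 counts in basal wells, so their separation adds no evidence. Of the 14 listed feedback and target genes 6 were not tested. Ccnd1, cyclin D1, rose from 247, 242 and 229 CPM to 1372, 1270 and 1243 CPM (2.43 ± 0.16, adjusted p = 9.9e-20).

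Of 8 secreted Wnt inhibitors tested 4 were lower and 1, Dkk2, was higher (1.24 ± 0.39, adjusted p = 0.01), a call lost without bCFAE 1 (1.06, adjusted p = 0.059) and without basal 2 (1.08, adjusted p = 0.060). Sfrp1, which binds Wnt ligands, had 420.4, 239 and 455 CPM against 20.4, 7.99 and 27.4 CPM (-4.41 ± 0.25, adjusted p = 9.1e-22). Its relative Sfrp4 had 116, 75.5 and 126 CPM against 0 counts (at least 60.0-fold lower, adjusted p = 9.4e-16), and Sfrp2 and Dkk3 changed by -1.86 ± 0.34 and -1.53 ± 0.24. The ligand gene Wnt4 had 152, 63.0 and 89.6 CPM against 21.8, 29.3 and 20.6 CPM (-2.05 ± 0.32, adjusted p = 4.3e-07), and the receptor gene Fzd2 changed by -1.15 ± 0.21. Ctnnb1, the beta-catenin gene, which overlaps Ulk4 on the other strand, had 79.2, 94.4 and 73.0 CPM against 116, 98.5 and 121 CPM and was not called (0.42 ± 0.19, adjusted p = 0.075), although it was with scaling by library totals (adjusted p = 0.018) and without bCFAE 2 (adjusted p = 0.045). The promoter of the target gene Sp5, a zinc finger repressor that went from 0, 3.15 and 3.32 CPM to 18.9, 16.0 and 18.3 CPM (adjusted p = 0.0034), is shown (chr2:70474673-70474922, forward strand, GRCm38.p6) with the TCF motif CTTTGAT in capitals, 104 bases before the start. Of 7 feedback and target genes with a promoter, Sp5 and Tnfrsf19 hold this motif on either strand, as do 3.21% of all promoters, counted singly.
Sp5: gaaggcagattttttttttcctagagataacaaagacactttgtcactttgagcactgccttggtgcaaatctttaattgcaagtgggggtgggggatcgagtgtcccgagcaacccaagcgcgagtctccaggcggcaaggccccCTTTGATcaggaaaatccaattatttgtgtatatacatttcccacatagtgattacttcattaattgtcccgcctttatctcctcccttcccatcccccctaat

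Genes driven by ERK signalling rose: of 14 tested members 11 were called higher and 1 lower (median 1.22). Etv4, an ETS factor, had 27.4, 12.6 and 3.32 CPM in basal and 160, 188 and 201 CPM in bCFAE wells (3.59 ± 0.28, adjusted p = 3.8e-16, and 4.46 without basal 1). The MEF wells had 18.8, 17.9, 40.6 and 19.0 CPM of it, all below the bCFAE wells. Fosl1, an AP-1 subunit whose exons overlap Ccdc85b, rose from 51.8, 50.4 and 46.5 CPM to 157, 154 and 146 CPM (1.62 ± 0.21, adjusted p = 6.1e-09), and Hmga2, a chromatin protein of embryonic cells, from 222, 192 and 202 CPM to 649, 659 and 686 CPM (1.69 ± 0.14, adjusted p = 7.8e-15). The wells of these genes did not overlap, as for 45.8% of all genes tested. The feedback gene Errfi1, an inhibitor of the EGF receptor, rose by 1.26 ± 0.19 and Spred3 by 1.66 ± 0.37. Spry2, a feedback inhibitor, was the 1 called lower, from 36.5, 53.5 and 33.2 CPM to 11.6, 7.99 and 25.1 CPM (-1.60 ± 0.39, adjusted p = 0.00079).

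Genes of the cAMP response had no common direction, with 4 of 17 tested members higher and 4 lower (median -0.01), and 2 higher in the fit of the 6 wells alone. Nr4a1, an immediate early nuclear receptor gene, had 0, 6.30 and 3.32 CPM against 27.6, 22.6 and 22.9 CPM, a basal to bCFAE ratio of 0.117, 95% interval 0.0234 to 0.365 (adjusted p = 0.00031). Inhba, the activin A subunit, went from 0, 9.44 and 3.32 CPM to 33.5, 22.6 and 16.0 CPM (2.48 ± 0.57, and 3.77 without basal 2). Cck, a peptide hormone gene, fell from 73.1, 107 and 56.4 CPM to 7.27, 5.33 and 11.4 CPM (-3.36 ± 0.47, adjusted p = 4.5e-08). The phosphodiesterase genes parted, with Pde4d at 1.05 ± 0.26 and Pde4b at -1.74 ± 0.35.

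Retinoid genes moved both ways, with 5 of 7 tested targets lower, and 2 of 5 uptake and binding genes higher and 3 lower. Of 19 tested members 11 were called lower and 3 higher (median -1.10). Stra6, the receptor that imports retinol (chr9:58063788-58153996, forward strand, protein-coding, mm10), had 0, 9.44 and 3.32 CPM in basal wells and 633, 651 and 599 CPM in bCFAE wells. The rise was 7.12 ± 0.29 (adjusted p = 1.4e-28, and 8.41 without basal 2). The MEF wells had 4.70, 2.98, 20.3 and 7.59 CPM of Stra6, so that the bCFAE wells stood far above both. Crabp1, a cytosolic retinoic acid-binding protein, was abundant in both media and rose from 3683, 3900 and 2712 CPM to 7442, 7285 and 9710 CPM (1.24 ± 0.18, adjusted p = 6.7e-08). Its paralog Crabp2 fell by 1.10 on the log2 scale. Of the enzymes, Cyp26b1, which degrades retinoic acid, fell from 51.8, 47.2 and 53.1 CPM to 7.27, 3.99 and 4.57 CPM (-3.19 ± 0.48, adjusted p = 2.9e-07). The retinoid-induced genes Rarres2, which encodes the chemoattractant chemerin, and Tgm2, a transglutaminase, had 347, 441 and 325 CPM and 161, 145 and 153 CPM in basal wells. In bCFAE wells they had 4.36, 5.33 and 2.29 CPM and 11.6, 17.3 and 6.86 CPM, changes of -6.36 ± 0.28 and -3.56 ± 0.36. The receptor gene Rxra fell by 1.19.

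Of 11 tested neuronal genes 8 were called higher and 0 lower (median 3.08), while 13 listed neuronal genes were not tested. Nefl, a neurofilament subunit whose exons overlap those of Nefm, had 9.14, 3.15 and 6.64 CPM in basal and 105, 105 and 109.7 CPM in bCFAE wells (4.01 ± 0.48, adjusted p = 6.4e-10). Uchl1, a neuronal ubiquitin hydrolase, rose from 21.3, 37.8 and 39.8 CPM to 177, 170.4 and 153 CPM (2.35 ± 0.22, adjusted p = 2.2e-13), and Nrgn, a calmodulin-binding protein of dendrites, from 0, 6.30 and 9.96 CPM to 90.2, 87.9 and 75.4 CPM (3.94 ± 0.40, and 4.67 without basal 3). Nptx1, a synaptic pentraxin, had 0 counts in basal wells and 48.0, 95.8 and 96.0 CPM in bCFAE wells (at least 27.2-fold higher). Syn1, a synaptic vesicle protein whose exons overlap Araf, had 0 counts against 16.0, 36.0 and 38.9 CPM (at least 10.2-fold higher). No basal well reached a bCFAE well for these genes, and wells did not overlap for 45.8% of all genes tested. For Nptx1 and Syn1 this separation was a condition of being named among the leading rises. The neuronal tubulin gene Tubb3 had 33.5, 25.2 and 23.2 CPM against 13.1, 13.3 and 13.7 CPM and was not called (-1.03 ± 0.44, adjusted p = 0.062), although it was called lower without MEF 3 and bC8FAE 4 (adjusted p = 0.046).

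**Figure D5:**
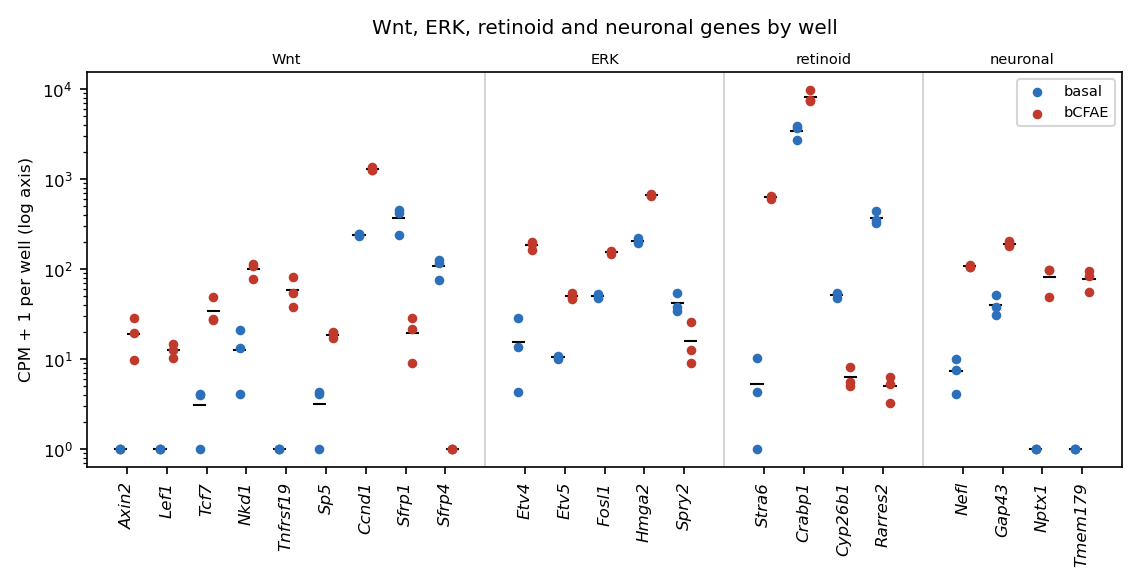
CPM + 1 of each well on a log axis for Wnt, ERK, retinoid and neuronal genes; blue points are the 3 basal wells, red points the 3 bCFAE wells and black bars the means. Stra6, Tnfrsf19, Nptx1 and Tmem179 are far higher in bCFAE, and Sfrp4, Spry2, Cyp26b1 and Rarres2 are lower.

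Epithelial genes were few among those tested. All 3 were called higher, and DESeq2 called only Dsp of them, while 1 listed gene was called lower with no filter on low counts, without bCFAE 1 and without basal 3. Dsp, the desmosomal desmoplakin, went from 0, 3.15 and 0 CPM to 18.9, 28.0 and 32.0 CPM (adjusted p = 2.8e-06), and the keratin gene Krt18 rose by 1.63 ± 0.48 (adjusted p = 0.0058, 0.057 by DESeq2). The defining genes Epcam and Cdh1 had 0 counts in both media. The summed level of the 10 junction genes was 0 to 9.44 CPM in basal and 29.1 to 43.4 CPM in bCFAE wells. Among endothelial markers, Esam, a junction protein, had 3.05, 0 and 3.32 CPM against 108, 94.5 and 68.6 CPM (adjusted p = 1.1e-11), while Pecam1 and Tek had 0 counts in both media. None of the 10 pluripotency genes listed was tested.

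Genes of the TGF-beta and BMP families moved both ways, and 4 of 8 tested ligands rose. Of 26 tested members 9 were called higher and 5 lower (median -0.06), with 3 lower without basal 1. Bmp7 and Bmp2, which signal to SMAD factors, had 0 counts and 0, 3.15 and 0 CPM in basal wells. In bCFAE wells they had 33.5, 29.3 and 25.1 CPM and 36.4, 50.6 and 22.9 CPM, with Bmp7 at least 10.4-fold higher (adjusted p = 6.9e-08). Id1, a direct BMP target, rose from 174, 176 and 202 CPM to 621, 624 and 544 CPM (1.70 ± 0.16, adjusted p = 1.1e-13). Id3, its paralog, fell from 2276, 2351 and 2029 CPM to 1463, 1458 and 1515 CPM (-0.59 ± 0.13, adjusted p = 0.00031), so the 2 genes moved apart. Fst, an antagonist of activin, rose by 1.30 ± 0.25, Smad7, an inhibitory SMAD, by 1.93 ± 0.51 and the ligand Tgfb1 by 1.94 ± 0.40. Tgfbr3, the betaglycan coreceptor, fell from 39.6, 40.9 and 33.2 CPM to 1.45, 2.66 and 4.57 CPM (-3.70 ± 0.52, adjusted p = 4.5e-08).

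Of 17 fatty acid handling and adipocyte genes 7 were lower and 2 higher, or 1 higher without bCFAE 1, bCFAE 2, basal 1 or basal 3 (median -0.26). Lpl, lipoprotein lipase, had 143, 198 and 93.0 CPM against 1.45, 3.99 and 2.29 CPM (-5.63 ± 0.43, adjusted p = 8e-17), and Fabp4, a fatty acid carrier, had 57.9, 88.1 and 63.1 CPM against 1.45, 0 and 0 CPM, a bCFAE to basal ratio of 0.00841, 95% interval 0.00021 to 0.0485. Plin2, which coats lipid droplets, rose from 372, 368 and 342 CPM to 653, 638 and 688 CPM (0.86 ± 0.13, adjusted p = 4.1e-07). Of 30 sterol and fatty acid synthesis genes 14 were lower and 2 higher, or 1 higher without bCFAE 2, basal 1 or basal 2 (median -0.61). Mvd, a decarboxylase of the mevalonate pathway, fell from 189, 179 and 149 CPM to 53.8, 77.2 and 68.6 CPM (-1.38 ± 0.20, adjusted p = 1.5e-07). Fasn, fatty acid synthase, rose from 216, 246 and 216 CPM to 420.3, 438 and 521 CPM (1.01 ± 0.16, adjusted p = 3.6e-07), while Scd1, a desaturase, fell by 1.43.

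Some DNA replication genes rose, and most mitosis genes, like most genes tested, were not called. Of 26 tested replication genes 9 were higher and 0 lower (median 0.45). The helicase gene Mcm2 had 51.8, 34.6 and 36.5 CPM against 118, 87.9 and 105 CPM (1.32 ± 0.28, adjusted p = 0.00014) and the factor gene E2f1 had 51.8, 85.0 and 59.8 CPM against 138, 157 and 149 CPM (1.17 ± 0.21, adjusted p = 1.1e-05). Of 21 mitosis genes 16 were not called, 4 were lower and 1 was higher (median 0.16), while 4574 of all 6985 genes tested were not called. The falls were 2 without bCFAE 1, 0 without bCFAE 2 and 1 without basal 2. The rises were 0 without bCFAE 1 or basal 3 and 2 without basal 2. Cdk1 was not called, with 57.9, 44.1 and 63.1 CPM against 69.8, 65.2 and 52.6 CPM. Of 20 p53 targets 6 were higher and 2 lower (median 0.37), with 1 lower without bCFAE 1, bCFAE 2 or basal 3 and 0 in the fit of the 6 wells alone. Cdkn1a, the cell cycle inhibitor p21, had 786, 778 and 747 CPM against 1598, 1551 and 1422 CPM (0.98 ± 0.15, adjusted p = 2.6e-07) and Mdm2, which degrades p53, had 54.8, 34.6 and 43.2 CPM against 202, 150.4 and 133 CPM (1.88 ± 0.24, adjusted p = 3.3e-09).

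Protein folding genes of the cytosol rose in part and those of the endoplasmic reticulum fell in part. Of 21 cytosolic heat shock genes 10 were higher and 1 lower (median 0.52), or 0 lower when any 1 of the 6 wells was left out. Of 22 endoplasmic reticulum chaperone and unfolded protein response genes 9 were lower and 0 higher (median -0.58), or 5 lower without bCFAE 1. Cryab, a small heat shock protein whose exons overlap Hspb2, rose from 79.2, 44.1 and 106 CPM to 496, 558 and 581 CPM (2.83 ± 0.22, adjusted p = 1.8e-16). Hsp90ab1, the constitutive HSP90, rose from 1742, 1961 and 1657 CPM to 2801, 2889 and 2510 CPM (0.61 ± 0.12, adjusted p = 4.5e-05). Hspa5, the main chaperone of the endoplasmic reticulum, fell from 506, 526 and 405 CPM to 286, 241 and 213 CPM (-0.95 ± 0.16, adjusted p = 2.1e-06), and Calr, calreticulin, from 2964, 2912 and 2849 CPM to 1712, 1785 and 1979 CPM (-0.68 ± 0.15, adjusted p = 0.00018). No wells overlapped for these 4 genes, as for 45.8% of all genes tested. Of 29 amino acid response genes 10 were higher and 5 lower (median 0.41), or 2 lower without bCFAE 1, basal 1 or basal 3. Of the 12 tRNA synthetase genes among them 6 were higher and 0 lower. Aars, the alanine synthetase, had 134, 132 and 93.0 CPM against 278, 289 and 251 CPM (1.19 ± 0.16, adjusted p = 2.4e-08). Slc7a11, the cystine importer, had 0 counts against 30.5, 18.6 and 9.14 CPM (at least 7.22-fold higher). Of 6 tested regulators in the same amino acid response 3 were lower and 0 higher. Among these regulators Atf4 was not called (0.17 ± 0.15, adjusted p = 0.41), while Ddit4, an inhibitor of mTOR signalling, fell from 207, 214 and 202 CPM to 94.5, 97.2 and 98.3 CPM (-1.11 ± 0.17, adjusted p = 6.1e-07).

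Of 4 tested metal-binding genes 3 were lower and 1 higher. Mt1, a metallothionein, had 8727, 10730 and 7244 CPM in basal and 3607, 3311 and 3568 CPM in bCFAE wells (-1.35 ± 0.18, adjusted p = 9.7e-09). Fth1, the ferritin heavy chain, had 6750, 6576 and 6006 CPM against 2832, 2632 and 2983 CPM (-1.20 ± 0.14, adjusted p = 4.9e-10), whereas Ftl1, its light chain, rose from 128, 138 and 103 CPM to 304, 269 and 311 CPM (1.25 ± 0.18, adjusted p = 8.8e-08). Both chains had wells that did not overlap, in opposite directions, though ferritin and metallothionein genes have close copies whose reads could be split. Such a lack of overlap was seen for 45.8% of all genes tested. Of 13 NRF2 targets 5 were higher and 1 lower. Txnrd1, thioredoxin reductase, rose from 265, 242 and 252 CPM to 497, 487 and 533 CPM (0.99 ± 0.14, adjusted p = 9.5e-08).

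Of 18 glycolysis and hypoxia genes 8 were lower and 4 higher (median -0.005). Hif1a, the oxygen-regulated factor, had 192, 189 and 186 CPM against 62.5, 55.9 and 57.1 CPM (-1.69 ± 0.18, adjusted p = 3.3e-11). Of 5 tested genes in the list's hypoxia group 4 were called lower and 1 higher. Bnip3, a mitophagy receptor, fell from 70.1, 107 and 93.0 CPM to 13.1, 14.6 and 11.4 CPM (-2.73 ± 0.29, adjusted p = 1.6e-11) and Adm, adrenomedullin, by 2.70. Vegfa, the angiogenic factor, rose from 57.9, 59.8 and 53.1 CPM to 119, 119.8 and 89.1 CPM (0.96 ± 0.23, adjusted p = 0.00054). Slc16a3, the lactate exporter, fell from 119, 179 and 123 CPM to 24.7, 14.6 and 13.7 CPM (-2.94 ± 0.30, adjusted p = 4.8e-12), and the pyruvate kinase gene Pkm rose by 0.56 ± 0.14.

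Of 27 lysosome and autophagy genes 5 were higher and 8 lower (median -0.05), and the falls were 3 to 5 without bCFAE 1, bCFAE 2 or any 1 basal well. Ctsl, the lysosomal cathepsin L, rose from 1212, 1303 and 1235 CPM to 3994, 3915 and 3598 CPM (1.61 ± 0.14, adjusted p = 2e-14). Mcoln1, a lysosomal cation channel, went from 9.14, 9.44 and 9.96 CPM to 39.3, 47.9 and 48.0 CPM (2.20 ± 0.40, adjusted p = 8.3e-06) and Sqstm1, an autophagy cargo receptor, from 164, 189 and 226 CPM to 397, 375 and 363 CPM (0.97 ± 0.14, adjusted p = 8.6e-08). Map1lc3a, which lines autophagosomes, fell from 472, 444 and 428 CPM to 224, 205 and 233 CPM (-1.03 ± 0.16, adjusted p = 5e-07). Of 23 ribosomal protein genes 14 were not called and 8 were lower (median -0.26), or 4 lower with no filter on low counts. Of 6 tested mitochondrially encoded genes 5 were not called (median -0.05).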

How the data were processed

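Per the labels, mouse embryonic fibroblast wells were profiled by DRUG-seq2. The deposited table holds whole-number counts per gene and well that the authors made with STAR and the mm10 build, per the submitters' processing notes. The tool's version, the annotation, strand use and whether molecular identifiers were collapsed: not given in the sources used here.

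Of 274 columns, 242 were not used. edgeR 4.0.16 (R 4.3.3) fitted 30 medium-named wells in 1 quasi-likelihood model with TMM scaling and filterByExpr (minimum count 10), leaving 6985 of 20471 genes, and bCFAE was tested against basal at an adjusted p under 0.05 (Benjamini-Hochberg). The procedure was tested on simulated data. Alternatives used DESeq2 1.42.0, other scalings and filters, fewer wells and left-out wells. Bounds use a floor of 3 counts over a group, and MEF wells serve as description. Named genes are list members plus the 15 largest rises and falls among called genes without overlap of wells and with a mean of 10 CPM or more in the higher medium. The members and lists were chosen with earlier results of these data known. Coordinates are from GENCODE vM21, promoters from RefSeq (GRCm38.p6, 608 of 853 genes matched). The 26 date-like gene names were left as deposited.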

Additional observations from a re-analysis of the deposited data

Results flagged for a closer look

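In the 4 MEF wells, 1 well stood apart from the other 3 for 4 of the genes described. The gap between that well and its nearest neighbour, as a share of the whole range of log2(CPM + 1), was 0.858 for Lcn2, 0.877 for Lox and 0.93 for Etv4, each with MEF 3 the highest well, and 1 for Axin2, where MEF 2 alone had counts. The rule flags about 1 in 20 groups of normal values by chance. The genes share the same wells, so their flags are not independent. That share does not hold for Axin2, where no other MEF well had counts. MEF 3 had the lowest total of the MEF wells, 138747 counts, and the part of its depth in these values was not tested.

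Wells named nocell, which enter no comparison, held counts: nocell_2 had a total of 4280 and nocell_3 of 25308. In nocell_3 the genes described above included 489 counts of Crabp1, 49 of Col18a1 and 28 of Ccl8.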

How the results depend on the processing

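The numbers of genes called higher (1141) and lower (1270) stayed within 1.5 times under all 13 alternatives, at 966 to 1482 higher and 1007 to 1326 lower. Leaving out 1 of the 6 wells gave 966 to 1089 higher and 1063 to 1194 lower. Scaling by library totals gave 1482 higher and 1007 lower, and no filter on low counts 1380 and 1127 over 16831 genes. Rela, which was not called, changed sign to 0.054 with library totals and 0.037 with no filter, and ranged from -0.139 to 0.016 when 1 well was left out (without basal 1 and basal 2). Cd68, also not called, ranged from -0.148 without basal 1 to 0.534 without basal 3. The cause was not tested. Of 172 genes followed, 159 kept call and direction under every alternative that tested them.

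The wells share numbers across media, and the deviations of same-numbered wells had correlations of -0.004, -0.013 and -0.006 across genes. Counting noise in single wells can bring such correlations near 0, so they cannot tell whether the numbers pair the wells. The main fit used no pairing. With the replicate number as a block, in the 6 wells and 5161 genes, 1081 genes were called higher and 1148 lower.

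Totals of 315416 to 354766 counts in basal wells limit what can be said of low genes, and genes that did not pass the filter are not shown to be unchanged.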
